A study of Rattus norvegicus with 50 samples.

Results

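The residual difference from lean under MK-8722 was measured as obese ZSF1 rats given MK-8722 at 10 mpk (the dose unit of the labels) compared with lean ZSF1 rats given vehicle, separately in kidney cortex and kidney medulla. Members were chosen by their labels: 5 libraries of each group in each tissue, 20 of the 50 libraries in the series. The other 30 libraries were obese vehicle, obese enalapril 10 mpk and obese MK-8722 1 mpk. Every group is labelled with 28 weeks of treatment and an age of 20 weeks, 2 entries that cannot both describe the day of sampling. The labels give neither sex nor vehicle. They do not say which libraries came from separate animals, so p-values measure the spread between libraries. The 2 groups differ in both genotype and drug, and obese vehicle is the only group that shares the obese genotype without a drug.

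MK-8722 is a systemic direct activator of AMP-activated protein kinase (AMPK), the kinase that senses low cellular energy and switches cells from building lipids and other stores to burning fuel. The obese ZSF1 rat lacks working leptin receptors and develops obesity, high blood sugar and progressive kidney disease. Its lean counterpart does not become obese or diabetic but comes from the same partly hypertensive background. Cortex holds the glomeruli and proximal tubules, and medulla holds loops of Henle and collecting ducts. The comparison asks which kidney transcripts still differ from those of lean rats when obese rats are treated with the activator.

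Values were FPKM, fragment counts scaled to transcript length and library size, of whole-tissue total RNA. In such data fewer cells of a type and less RNA per cell cannot be told apart. Genes with at least 1 FPKM in 5 or more of the 10 libraries of a tissue were tested, 12465 in cortex and 12990 in medulla of 32545 gene IDs. A gene could pass this filter through 1 group alone. The files pair no ID with a gene name, so genes are given by ID. Cortex and medulla markers could not be read by name, but each of the 20 libraries correlated best with a library of its own tissue. Log2 fold changes are on log2(FPKM + 0.5), MK-8722 10 mpk over lean, which understates changes of low genes. They are given as deposited and after median-ratio rescaling within each tissue.

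A large share of tested cortex genes still differed from lean under MK-8722. On deposited values 3320 genes were higher (26.6% of those tested) and 1394 lower (11.2%), together 37.8% (limma, adjusted p under 0.05, n = 5 each). After rescaling 2616 were higher (21%) and 2309 lower (18.5%), together 39.5%. The median log2 fold change over all tested genes was 0.11 as deposited and -0.003 after rescaling. All 2616 rises after rescaling were among the deposited rises, and all 1394 deposited falls were also falls after rescaling. No gene was called in opposite directions on the 2 scales, but 704 deposited rises were not called after rescaling.

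Most called cortex differences were small. Of the deposited calls 82.8% were under 2-fold, as were 84.4% after rescaling. Large differences were mainly rises. At least 2-fold differences numbered 693 rises and 119 falls as deposited, and 593 and 176 after rescaling. At least 4-fold differences numbered 110 rises and 14 falls as deposited, and 94 and 16 after rescaling. The 5 MK-8722 10 mpk values all lay above the 5 lean values for 2216 genes and all below them for 995, together 25.8% of those tested. Leaving out any 1 of the 10 libraries kept the call and its direction for 3455 of 4714 as deposited and 3770 of 4925 after rescaling.

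Without a term for library depth, the count of genes that differed from lean was higher in medulla, though the 2 counts were not tested against each other. On deposited values 4716 genes were higher (36.3%) and 1570 lower (12.1%), together 48.4%. The median log2 fold change over all tested genes was 0.17 as deposited. After rescaling 2800 were higher (21.6%) and 2847 lower (21.9%), together 43.5%. Over all calls an excess of rises was seen on deposited values and not after rescaling. Rescaling by median ratios centres the fold changes of these same genes (median -0.004), so it cannot decide whether rises were in excess. All 2800 rises after rescaling and all 1570 deposited falls were called on both scales, and 1916 deposited rises were not called after rescaling. At least 2-fold differences numbered 963 rises and 298 falls as deposited, and 728 and 496 after rescaling. At least 4-fold differences numbered 132 and 25 as deposited, and 106 and 37 after rescaling. The 2 groups did not overlap for 2764 genes that were higher and 1096 that were lower, together 29.7%.

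**Figure D1:**
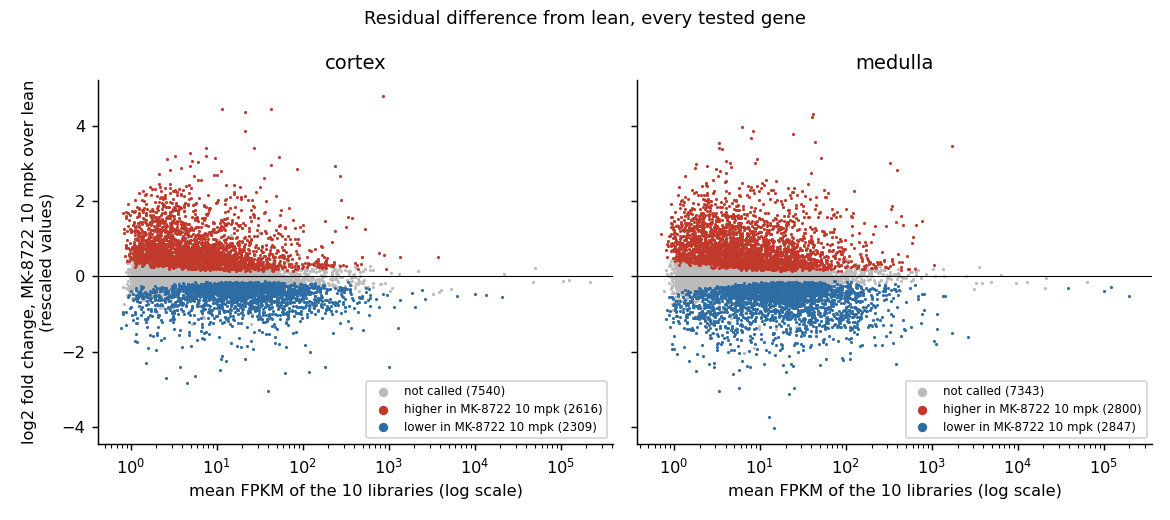
Log2 fold change of MK-8722 10 mpk over lean on rescaled values (vertical axis) against the mean deposited FPKM of the 10 libraries (horizontal axis, log scale) for every tested gene of cortex and medulla, with called rises in red and called falls in blue. The cortex panel holds 2616 rises and 2309 falls, and falls make up more of the calls toward the right of both panels.

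Rises and falls were spread unequally over the range of expression. Among cortex genes averaging under 2 FPKM, 29.4% were higher and 6.99% lower after rescaling. Among those at 100 FPKM and over, 16% were higher and 46.9% lower. The same classes in medulla gave 26.9% higher and 9.05% lower under 2 FPKM, and 18.5% higher and 48.4% lower at 100 FPKM and over. Low genes could pass the filter through the 5 libraries of 1 group alone, which fixes their direction in advance. More genes reached 1 FPKM under MK-8722 10 mpk than in lean, which favours rises in the lowest class. Genes that passed in this way were not set apart. The share of lower genes grew with every step of abundance in both tissues, on deposited values too, where it reached 35.6% in cortex and 33.5% in medulla. On deposited medulla values the share of higher genes was 36.0%, 40.4%, 36.3%, 32.0% and 35% from the lowest class to the highest, with no steady trend.

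**Figure D2:**
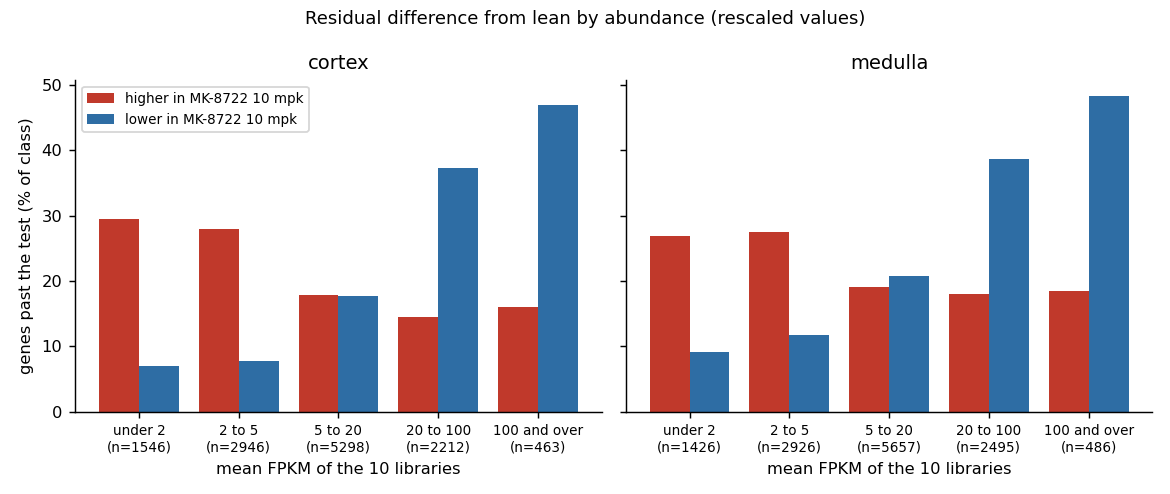
Percent of tested genes called higher (red) or lower (blue) in MK-8722 10 mpk than in lean on rescaled values, by class of mean deposited FPKM over the 10 libraries, with the number of genes in each class. In cortex the called falls occupy 6.99% of the lowest class and 46.9% of the highest.

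The number of detected genes and library depth also differed between the groups. Genes with at least 1 FPKM numbered 12734 ± 312 under MK-8722 10 mpk and 12022 ± 54 in lean cortex (SD, n = 5; exact two-sided permutation test, adjusted p = 0.0159 over 6 tests). In medulla they numbered 13290 ± 229 under MK-8722 10 mpk and 12540 ± 78 in lean (exact permutation test, adjusted p = 0.0159). The 10 most abundant IDs held 63.5% ± 1.78 of summed FPKM under MK-8722 10 mpk and 67.1% ± 1.23 in lean medulla (SD, n = 5; exact permutation test, adjusted p = 0.0159). In cortex these shares were 67.2% ± 3.07 and 67.3% ± 1.65 (SD, n = 5; exact permutation test, adjusted p = 1). Relative depth, read from the steps between low FPKM values, was 0.869 ± 0.129 under MK-8722 10 mpk and 1.13 ± 0.077 in lean medulla (SD, n = 5; exact permutation test, adjusted p = 0.0238). In cortex it was 1.34 ± 0.194 and 1.36 ± 0.081 (SD, n = 5; exact permutation test, adjusted p = 1). A fit with relative depth among its terms called 4034 medulla genes, against 6286 without that term, so the size of the medulla count depended on it. The 4034 are not comparable with the cortex counts given above, which came from fits without that term.

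Every MK-8722 10 mpk library lay farther from lean than any lean library did. Distance was taken as the median, over tested genes, of the absolute log2 difference from the lean mean, with a lean library left out of its own mean. Such a distance grows with the spread among the libraries of a group as well as with a shift of the group mean. In cortex it was 0.310, 0.198, 0.210, 0.382 and 0.205 in MK-8722 10 mpk replicates 2, 4, 5, 6 and 7, against 0.0879 to 0.123 in lean libraries. Replicates 2 and 6 were the farthest. In medulla it was 0.233, 0.413, 0.350, 0.246 and 0.387 in MK-8722 10 mpk replicates 1, 2, 3, 5 and 6, against 0.105 to 0.142 in lean libraries. Replicates 1 and 5 were the nearest to lean there. The groups did not overlap in either tissue (exact two-sided permutation test, p = 0.00794, the smallest that 5 against 5 allows; adjusted p = 0.0317 over 8 tests per scale). After rescaling the mean distances under MK-8722 10 mpk were 0.241 ± 0.062 in cortex and 0.287 ± 0.054 in medulla, against 0.107 ± 0.013 and 0.124 ± 0.014 in lean (SD, n = 5; exact permutation test, adjusted p = 0.0317 in each tissue).

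Set beside obese vehicle, MK-8722 10 mpk was nearer to lean in medulla on deposited values, and this difference was not called after rescaling. In medulla the distance from lean was 0.326 ± 0.082 under MK-8722 10 mpk and 0.454 ± 0.059 under obese vehicle (SD, n = 5; exact permutation test, adjusted p = 0.0476). After rescaling it was 0.287 ± 0.054 under MK-8722 10 mpk and 0.338 ± 0.046 under obese vehicle (SD, n = 5; exact permutation test, adjusted p = 0.222). In cortex it was 0.261 ± 0.082 under MK-8722 10 mpk and 0.362 ± 0.114 under obese vehicle (SD, n = 5; exact permutation test, adjusted p = 0.169). After rescaling these cortex values were 0.241 ± 0.062 and 0.261 ± 0.054 (SD, n = 5; exact permutation test, adjusted p = 0.571). Judged by the same distance, 2 of the 5 MK-8722 10 mpk cortex libraries lay nearer to the obese vehicle mean than to the lean mean as deposited, and 4 of 5 did after rescaling. In medulla 3 of 5 did as deposited and 5 of 5 after rescaling. Mean relative depth was 1.34 under MK-8722 10 mpk and 1.02 under obese vehicle in cortex, and 0.869 and 0.727 in medulla. The part of depth in these distances was not tested.

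**Figure D3:**
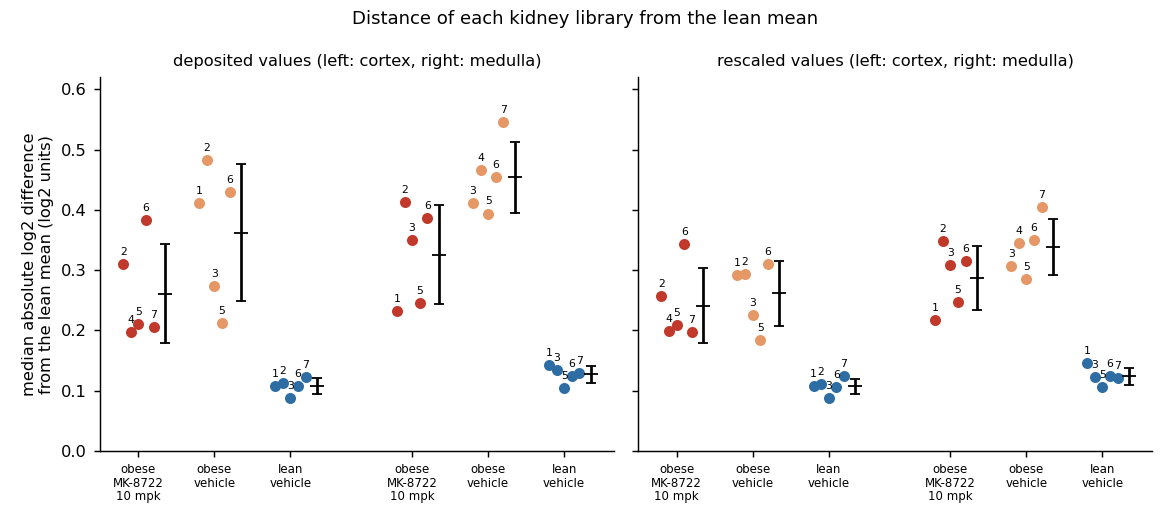
Median absolute log2 difference from the lean mean over tested genes (vertical axis, log2 units) for each library of obese MK-8722 10 mpk, obese vehicle and lean vehicle, with replicate numbers at the points and mean ± SD bars (n = 5), as deposited and rescaled. All MK-8722 10 mpk libraries sit above all lean libraries, and cortex MK-8722 10 mpk values run from 0.198 to 0.382 on deposited values.

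The lower dose and enalapril gave further reference points on the same distance. Cortex under MK-8722 10 mpk lay nearer to lean than under MK-8722 1 mpk, at 0.261 ± 0.082 against 0.392 ± 0.032 (SD, n = 5; exact permutation test, adjusted p = 0.0476). After rescaling the values were 0.241 ± 0.062 at 10 mpk and 0.297 ± 0.012 at 1 mpk (SD, n = 5; exact permutation test, adjusted p = 0.165). In medulla the deposited values were 0.326 ± 0.082 at 10 mpk and 0.425 ± 0.044 at 1 mpk (SD, n = 5; exact permutation test, adjusted p = 0.0762). The difference between MK-8722 10 mpk and enalapril passed the test in neither tissue, which does not show that they act alike. Their cortex distances were 0.261 ± 0.082 under MK-8722 10 mpk and 0.209 ± 0.038 under enalapril (SD, n = 5; exact permutation test, adjusted p = 0.2), and their medulla distances 0.326 ± 0.082 and 0.316 ± 0.049 (SD, n = 5; exact permutation test, adjusted p = 0.825). Mean relative depth in cortex was 1.34 under MK-8722 10 mpk, 1.06 under MK-8722 1 mpk and 1.25 under enalapril. The medulla means were 0.869, 0.798 and 0.767 in the same order. The part of depth in these distances was not tested.

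The median spread among MK-8722 10 mpk libraries was larger than among lean libraries, and in cortex it was close to that of obese vehicle. The median SD of a gene within the group was 0.208 on the log2 scale under MK-8722 10 mpk, 0.203 under obese vehicle and 0.129 in lean cortex, and the SD was the larger under MK-8722 10 mpk for 77.9% of genes. After rescaling these cortex medians were 0.186 under MK-8722 10 mpk, 0.167 under obese vehicle and 0.129 in lean. In medulla they were 0.218 under MK-8722 10 mpk, 0.163 under obese vehicle and 0.154 in lean as deposited, and 0.202, 0.158 and 0.149 after rescaling. These are descriptions over genes that share libraries, with no test.

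Each named ID was chosen as the largest rise or fall in a tissue among genes called on both scales without overlap of the groups. In that tissue its separation from lean and its small adjusted p against lean therefore follow from the choice. The choice also favours a larger residual there than in the other tissue. A tissue difference of a named ID, with its p-value, is therefore not free of the choice. Gene ID ENSRNOG00000043451 had the largest cortex rise over lean. Its cortex values were 2586, 1451, 595, 2628 and 1135 FPKM in MK-8722 10 mpk replicates 2, 4, 5, 6 and 7, against 58.2, 50.7, 44.9, 45.6 and 44.2 FPKM in lean. Every treated library stood far above every lean one, and replicates 2 and 6 were the highest. The log2 fold change was 4.90 ± 0.335 (SE, limma adjusted p = 1.23e-09) and 4.78 after rescaling. Medulla values were 2124, 3958, 3940, 2005 and 4218 FPKM in MK-8722 10 mpk replicates 1, 2, 3, 5 and 6, against 192 to 290 FPKM in lean. The medulla log2 fold change of ENSRNOG00000043451 was 3.65 ± 0.195 (SE, limma adjusted p = 1.34e-12), and replicates 1 and 5 were the lowest treated libraries. The cortex minus medulla difference of its residuals was 1.25 ± 0.396 log2 units on deposited values (SE, limma interaction adjusted p = 0.0741) and 1.30 ± 0.337 after rescaling (adjusted p = 0.0159). On deposited values it was also called with the replicate block, at 1.53 (limma adjusted p = 0.00232), whose numbers did not pair the residual groups. With relative depth as a term, a setting added after seeing the data, it was 1.73 (limma adjusted p = 0.00219). These settings do not replace the main deposited result, which was not called.

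Whether the level of ENSRNOG00000043451 under MK-8722 10 mpk lay below that of obese vehicle depended on the setting. Cortex averaged 1679 ± 901 FPKM under MK-8722 10 mpk and 3198 ± 1305 FPKM under obese vehicle (SD, n = 5), with overlapping values. The log2 fold change against obese vehicle was -1.01 ± 0.335 in cortex (SE, limma adjusted p = 0.0301), and after rescaling -0.81 (adjusted p = 0.0786). In medulla it was -0.75 ± 0.195 (SE, limma adjusted p = 0.0125), and after rescaling -0.57 (adjusted p = 0.0505). Both rescaled values miss the threshold. In a fit that included relative depth the cortex value was -0.32 (limma adjusted p = 0.695) and the medulla value -0.50 (adjusted p = 0.0817). The cortex call was lost with the 2 groups alone (limma adjusted p = 0.154), with the library number range as a term (adjusted p = 0.081) and in the lower range (adjusted p = 0.0751). In medulla it was lost with the 2 groups alone (limma adjusted p = 0.0817) and with the replicate block (adjusted p = 0.0533). The deposited cortex call was also lost without MK-8722 10 mpk replicate 4, 5 or 7 or obese vehicle replicate 1, 2 or 6, with limma adjusted p of 0.0546 to 0.111. The medulla call was lost without obese vehicle replicate 7, at -0.61 (limma adjusted p = 0.0508).

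ENSRNOG00000008816 had the largest medulla rise over lean. Its medulla values were 48.2, 108, 83.1, 51.5 and 113 FPKM in MK-8722 10 mpk replicates 1, 2, 3, 5 and 6, against 2.10 to 4.13 FPKM in lean. Here too replicates 1 and 5 were the lowest treated libraries, and no treated value came near a lean one. The log2 fold change was 4.47 ± 0.21 (SE, limma adjusted p = 5.45e-13) and 4.31 after rescaling. Cortex values of ENSRNOG00000008816 were 45.6, 28.8, 27.4, 61.4 and 39.4 FPKM in MK-8722 10 mpk replicates 2, 4, 5, 6 and 7, against 1.86 to 2.30 FPKM in lean. Its cortex log2 fold change was 3.94 ± 0.21 (SE, limma adjusted p = 7.41e-12). Against obese vehicle the medulla level was not lower: it averaged 80.6 ± 30.3 FPKM under MK-8722 10 mpk and 52.9 ± 10.9 FPKM under obese vehicle (SD, n = 5). That log2 difference was 0.54 ± 0.21 (SE, limma adjusted p = 0.07) and 0.72 after rescaling (adjusted p = 0.0223). The ID was chosen by these same MK-8722 10 mpk medulla values, which favours a level above obese vehicle, so these p-values are not free of the choice.

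The largest cortex fall was that of ENSRNOG00000024903. Its cortex values were 21.3, 6.12, 7.76, 4.80 and 3.85 FPKM in MK-8722 10 mpk replicates 2, 4, 5, 6 and 7, against 79.7, 146, 43.4, 54.1 and 24.4 FPKM in lean replicates 1, 2, 3, 6 and 7. As the choice required, the groups did not overlap, although the highest treated and the lowest lean library were close. The log2 fold change was -2.93 ± 0.804 (SE, limma adjusted p = 0.00655) and -3.06 after rescaling. In the cortex libraries of the lower number range alone it was -2.55 (limma adjusted p = 0.133). Medulla values of ENSRNOG00000024903 were 70.0 to 252 FPKM under MK-8722 10 mpk, against 558 to 698 FPKM in lean, a log2 fold change of -2.14 ± 0.367 (SE, limma adjusted p = 5.43e-05). MK-8722 10 mpk medulla held 153 ± 73.6 FPKM and obese vehicle medulla 99.7 ± 55.3 FPKM (SD, n = 5), a log2 difference of 0.69 over obese vehicle (limma adjusted p = 0.173).

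ENSRNOG00000019481 had the largest medulla fall. Its values were 1.68, 1.01, 1.49, 1.74 and 1.40 FPKM in MK-8722 10 mpk medulla, against 23.0, 33.8, 25.6, 32.6 and 22.4 FPKM in lean medulla. The 5 treated values lay close together and far below lean. The log2 fold change was -3.82 ± 0.305 (SE, limma adjusted p = 7.82e-10) and -4.02 after rescaling. Obese vehicle medulla had 0.0900 to 2.12 FPKM, a range that spans the treated values, and the log2 difference of MK-8722 10 mpk from obese vehicle was 0.79 ± 0.305 (SE, limma adjusted p = 0.0694). In cortex ENSRNOG00000019481 did not pass the filter; it had 0 to 0.575 FPKM under MK-8722 10 mpk, against 0.855 to 6.15 FPKM in lean.

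Both falling IDs were far more abundant in lean medulla than in lean cortex. ENSRNOG00000024903 averaged 612 FPKM in lean medulla and 69.6 FPKM in lean cortex, and ENSRNOG00000019481 27.5 and 2.64 FPKM. Within cortex, replicate 2 was the highest library for both IDs in MK-8722 10 mpk and also in lean. How much medulla each cortex sample held is not given by the labels, and its part in the cortex difference was not tested.

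**Figure D4:**
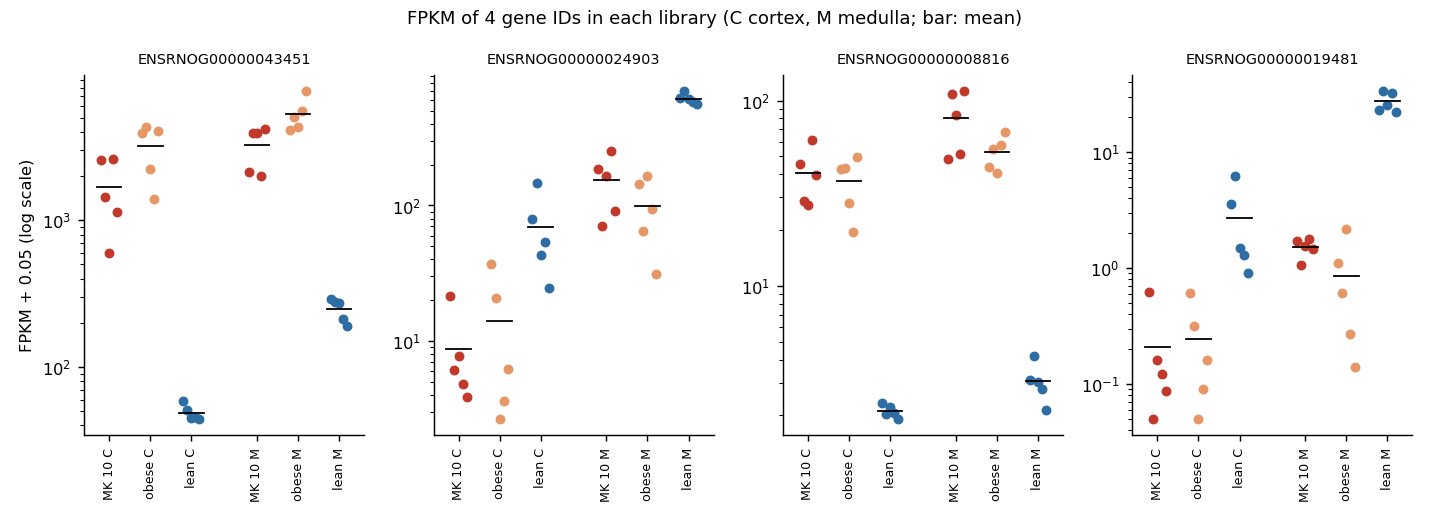
FPKM of the 4 gene IDs in every library of obese MK-8722 10 mpk (MK 10), obese vehicle (obese) and lean vehicle (lean), cortex (C) and medulla (M), on log axes with 0.05 added; bars mark group means (n = 5). For ENSRNOG00000043451 every treated cortex library, at 595 FPKM or more, sits above every lean one, and treated and obese vehicle libraries overlap.

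For the genes farthest from lean under MK-8722 10 mpk, the obese vehicle medians were also far from lean. Both differences share the lean libraries, and the genes were chosen by the MK-8722 10 mpk values, so the medians are set side by side with no test. For the 593 cortex genes called higher and at least 2-fold so after rescaling, the median rescaled log2 difference from lean was 1.42 under MK-8722 10 mpk and 1.58 under obese vehicle, and MK-8722 10 mpk minus obese vehicle gave a median of -0.14. For the 728 such medulla genes the medians were 1.39 under MK-8722 10 mpk and 1.62 under obese vehicle, with -0.23 between them. Lower genes past 2-fold on the rescaled scale and called on both scales numbered 172 in cortex, with medians of -1.23 under MK-8722 10 mpk and -1.09 under obese vehicle. The 488 in medulla had medians of -1.28 under MK-8722 10 mpk and -1.48 under obese vehicle.

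Counts of calls for these neighbouring comparisons, over the same genes, give the scale. Obese vehicle minus lean called 7624 cortex genes (61.2%) and 8888 medulla genes (68.4%) on deposited values, and 5613 (45%) and 7018 (54%) after rescaling. A fit that included relative depth gave 4153 and 5118. MK-8722 10 mpk minus obese vehicle called 3569 cortex genes (28.6%) and 2481 medulla genes (19.1%) on deposited values, mostly lower under MK-8722 10 mpk. In cortex 295 were higher (2.37%) and 3274 lower (26.3%), and in medulla 228 were higher (1.76%) and 2253 lower (17.3%). After rescaling it called 1100 cortex genes (8.82%), 587 higher (4.71%) and 513 lower (4.12%), and 713 medulla genes (5.49%), 428 higher (3.29%) and 285 lower (2.19%). The deposited excess of lower genes was not present after rescaling, which centres the fold changes and so cannot decide on such an excess. With the 2 groups alone the deposited counts were 510 in cortex and 469 in medulla, and with relative depth as a term 438 and 834. In cortex 2235 were called with the library number range as a term and 991 in the lower range, and in medulla 1147 with the replicate block. These counts also changed with single libraries: without MK-8722 10 mpk replicate 5 or obese vehicle replicate 2 the cortex count was 1907 or 1812. In medulla it was 1372 or 1223 without MK-8722 10 mpk replicate 1 or 5, and 1587 or 1012 without obese vehicle replicate 6 or 7.

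The residual difference was largely alike in the 2 tissues, which share no libraries. On deposited values 2477 of the 12211 genes tested in each tissue rose in both, 76.1% of the cortex rises and 56.5% of the medulla rises, where 35.9% of all these genes were higher in medulla. Falls in both numbered 906, 67.5% of the cortex falls and 61.3% of the medulla falls, where 12.1% of all were lower in medulla. Opposite calls numbered 41. After rescaling 1782 were higher in both, 1632 lower in both and 48 opposite. Of 570 cortex rises past 2-fold after rescaling 546 were called higher in medulla (95.8%), where 20.7% of all these genes were. Of 162 cortex falls past 2-fold 155 were called lower in medulla (95.7%), where 22.4% of all were. In the other direction, 584 of 620 medulla rises past 2-fold were called higher in cortex (94.2%) and 375 of 438 medulla falls were called lower there (85.6%), where 20.9% and 18.4% of all were. The log2 fold changes of the tissues correlated across genes with Pearson r = 0.82 and Spearman rho = 0.74; genes are not independent replicates, and the labels do not say whether the tissues came from the same animals.

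A test of the difference between tissues itself called 383 genes (3.14%) on deposited values, 158 with a more positive residual in cortex (1.29%) and 225 in medulla (1.84%). After rescaling it called 514 (4.21%), 273 more positive in cortex (2.24%) and 241 in medulla (1.97%), so that the direction held by more genes changed with the scaling. With the 20 libraries of the 2 groups alone the deposited count was 223. Called on both scales were 347 genes, and 77 of the deposited calls differed by at least 2-fold between tissues.

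**Figure D5:**
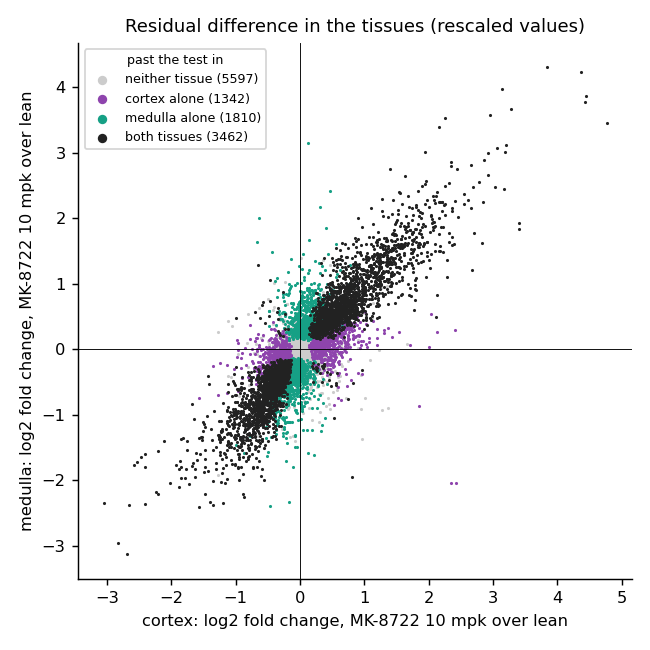
Log2 fold change of MK-8722 10 mpk over lean on rescaled values in cortex (horizontal axis) and medulla (vertical axis) for the 12211 genes tested in both, coloured by the tissue in which the gene passed the test. Points called in both tissues lie along the diagonal, 1782 of them higher and 1632 lower in both.

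Library numbers in the labels fall into 2 ranges among cortex samples, and the ranges cut across the groups unequally. Obese vehicle, MK-8722 1 mpk and enalapril each have 4 libraries in the lower range and 1 in the higher. Cortex comparisons of MK-8722 10 mpk with these groups are therefore unbalanced for the range. The lower range also holds 2 MK-8722 10 mpk and 3 lean libraries, and the higher range 3 and 2. Within the lower range 2969 cortex genes were called, 2268 higher and 701 lower, and within the higher range 435, 333 higher and 102 lower, each from 5 libraries of the 2 groups in a fit with fewer libraries. With the range as a term 4979 genes were called, against 4714 without it. The distance from lean was larger under MK-8722 10 mpk than in lean by 0.151 in the lower and by 0.15 in the higher range, against 0.153 over all 10 libraries; within a range the smallest exact permutation p is 0.2, which both reached.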

How the data were processed

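The authors deposited FPKM values for 32545 Ensembl gene IDs in 50 libraries, per the file headers; per the labels' protocols these are stranded, ribosome-depleted total RNA libraries. The sources used here name no aligner, counting tool or genome build. Absolute depth is unknown. Low values lay on whole multiples of 1 read (93.5% of 58776 values within 0.1 read), which gave relative depth. The read unit of each gene and the scale of each library were fitted to these same values, so this share is no independent check. None of the IDs matched the RefSeq gene table (0 matched), so the gene and marker lists by symbol could not be applied and no sequence is shown.

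FPKM were tested as log2(FPKM + 0.5) with limma 3.58.1 (trend, robust) in R 4.3.3, on the 25 libraries of a tissue with a mean per group; an interaction came from all 50. A gene was called at a two-sided p under 0.05 after Benjamini-Hochberg adjustment over the tested genes. Library values were compared by exact permutation tests (scipy 1.17.1). The code was tested on simulated data.

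The named IDs are the largest rise and fall per tissue among genes called on both scales, not overlapping, with a mean of at least 2 FPKM in the higher group. The members, lists and rules were chosen with earlier results of these data known.

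Replicate numbers recur across groups. Same-numbered MK-8722 10 mpk and lean libraries correlated in their deviations with r of -0.12 to 0.24, so they were not treated as pairs. Cortex replicate 2, at 0.24, did correlate best with its own number. In cortex all 3 same-numbered MK-8722 10 mpk and obese vehicle libraries exceeded 0.1 (0.28, 0.47 and 0.31). This was taken as a possible pairing, which no label states, and only the replicate block allowed for it. The main tests of these groups were unpaired. Both replicate 5 libraries, at 0.47, lie in the higher library number range, and the part of the range was not tested. For replicate 2, at 0.28, the MK-8722 10 mpk library correlated better with an obese vehicle library of another number.

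Alternatives were median-ratio rescaling, a pseudocount of 0.1, no filter, 2 groups alone and the replicate block. Further ones were relative depth or library number range as a term, the lower range alone, and each library left out. The higher range, combined settings, relative depth as a term for the tissue difference, and the distance from lean were added after seeing the data.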

Additional observations from a re-analysis of the deposited data

Results flagged for a closer look

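A sample far from the others was found in 5 of 64 groups of 5 values tested, against about 1 in 20 expected by chance. Cortex enalapril replicate 1 lay farther from lean than its group, at 0.277 on deposited and 0.225 on rescaled values. Relative depth was low, at 0.992, in medulla lean replicate 1. Cortex MK-8722 10 mpk replicate 2 stood above its group for both falling IDs, with 0.575 FPKM of ENSRNOG00000019481 and 21.3 FPKM of ENSRNOG00000024903.

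The residual difference from lean was unequal in cortex and medulla for 383 genes by the test of the difference itself (limma interaction, adjusted p under 0.05), and this number ranged from 289 to 508 when 1 library was left out and was 223 with the 20 libraries of the 2 groups alone.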

How the results depend on the processing

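The 4 named IDs kept their direction against lean under the alternatives run. Rescaling turned 27 cortex and 97 medulla genes called higher in obese vehicle than in lean into lower calls, and turned the majority of medulla residual calls (2800 higher and 2847 lower) and of tissue-difference calls (273 more positive in cortex and 241 in medulla). For the residual difference, cortex calls numbered 2969 in the lower number range, 435 in the higher and 513 in the higher after rescaling; medulla calls numbered 4034 with relative depth as a term and 4079 with it after rescaling. Leaving out 1 library gave 3702 to 5076 calls in cortex and 5412 to 6737 in medulla. For obese vehicle minus lean, a fit with relative depth called 4153 cortex and 5118 medulla genes, and leaving out 1 library 6772 to 8045 and 8328 to 8698. For MK-8722 10 mpk minus obese vehicle in cortex, calls numbered 1100 after rescaling, 510 with the 2 groups alone, 438 with relative depth, 2235 with the number range as a term, 991 in the lower range, and 1812 to 5021 without 1 library. In medulla they numbered 713, 469 and 834 under the first 3 of these settings, and 1012 to 3111 without 1 library. The tissue difference called 223 genes with the 20 libraries alone. The cause of these changes was not tested. With the replicate block, whose numbers did not pair the residual groups, 5464 cortex and 5808 medulla residual genes were called; the block gave 1147 calls for MK-8722 10 mpk minus obese vehicle in medulla, 3921 in cortex where numbers may pair, and 387 for the tissue difference. The distance of MK-8722 10 mpk beyond lean in cortex was 0.151 in the lower and 0.15 in the higher range (exact permutation p = 0.2 each), and 0.123 to 0.169 without 1 library, against 0.176 to 0.221 in medulla. Its distance minus that of obese vehicle was -0.051 in medulla after rescaling (exact permutation p = 0.167), and -0.15 to -0.105 without 1 library, against -0.138 to -0.071 in cortex. Gene lists by symbol were not run. Absolute depth is unknown, so low values carry no interval.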

Other observations

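Replicates 2, 5 and 6 of MK-8722 10 mpk exist in both tissues. Replicates 2 and 6 were far from lean in both, with cortex distances of 0.310 and 0.382 and medulla distances of 0.413 and 0.387, and replicate 5 was near, at 0.210 in cortex and 0.246 in medulla. The labels do not say that a number marks an animal.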
